A study of Mus musculus with 18 samples.

Results

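H3.3K36M cells were compared with H3.3WT cells across all genes, to see which transcripts differ when the histone variant H3.3 carries methionine in place of lysine at the K36 position. The comparison used 4 of the 18 RNA sequencing libraries of the study, 2 in each group. It covered 13232 of the 20325 genes of their table, those with a level of at least 10 in 2 libraries. Both groups are C3H10T1/2 cells, a mouse embryo line of multipotent mesenchymal cells, grown at passage 10 to 15 in DMEM with 10% fetal bovine serum. H3.3WT cells stably express FLAG-HA-tagged wild-type H3.3, and H3.3K36M cells stably express the tagged histone with the substitution. Each group is 1 cell line. The labels do not say that its libraries came from separate cultures, so the spread behind the p-values is that between libraries and may be technical. Other differences between the lines cannot be told apart from those of the substitution. Some levels are also set beside those of control siRNA cells, 3 libraries of C3H10T1/2 cells given a scramble siRNA, for which the labels name no added histone.

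Lysine 36 of histone H3 is methylated by several enzymes. Setd2 makes the trimethyl mark along transcribed genes, while Nsd1 and Whsc1 make the dimethyl mark. The K36M substitution, found in most chondroblastomas, a cartilage tumor of young people, is known to inhibit these enzymes on the unmutated histones of the cell as well. C3H10T1/2 cells can be driven toward cartilage, fat, bone or muscle, so the results are ordered by the regulators, matrix and signals of those lineages.

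Levels are the deposited values, estimated read counts brought to a common scale across libraries. They are not divided by gene length, so a level is compared between groups and never between genes. Each gene's levels are written as H3.3WT replicates 1 and 2 against H3.3K36M replicates 1 and 2. A log2 difference is that of H3.3K36M minus H3.3WT on log2(level + 1), with its standard error (SE) from the limma fit of all tested genes. The libraries held 25322433 and 23343297 estimated reads in H3.3WT and 56041798 and 34022137 in H3.3K36M, so 1 estimated read is a level of 1.31 and 1.41 in H3.3WT and 0.573 and 0.938 in H3.3K36M.

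Of the genes tested, 12.8% were at least 2-fold higher in H3.3K36M at an adjusted p under 0.05 (1690 genes) and 8.51% at least 2-fold lower (1126 genes). Below, "rose" and "fell" stand for these calls, and "any size" for an adjusted p under 0.05 whatever the fold. At any size, 38.6% were higher and 36.1% lower. The median log2 difference over all genes tested was 0.01. These shares and this median are set beside the gene lists below. They are not matched for level, and among genes with a mean under 100 the share that rose was 41.6%. For every gene said to have risen or fallen, both libraries of 1 group lay above both of the other.

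Large differences were most frequent among genes of low level, though most falls were at higher levels. Of the 2462 genes with a mean under 100, 41.6% rose (1023 genes) and 14.2% fell (350 genes). Among the 5750 genes with a mean of 1000 to 10000 the shares were 3.11% and 5.48%. A gene can pass the filter on its level in 1 group alone, as did 152 genes listed at 0 in both H3.3WT libraries and 6 listed at 0 in both H3.3K36M libraries, and such a gene had to differ. Rises were 60.0% of the calls. That excess was absent after quantile normalisation (1395 higher and 1425 lower, 49.5% higher) and among genes with a level of at least 100 in 2 libraries (794 higher and 830 lower, 48.9% higher). Genes that fell held 11.4% and 11.8% of the summed levels of the H3.3WT libraries and 3.28% and 3.26% of those of H3.3K36M.

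**Figure D1:**
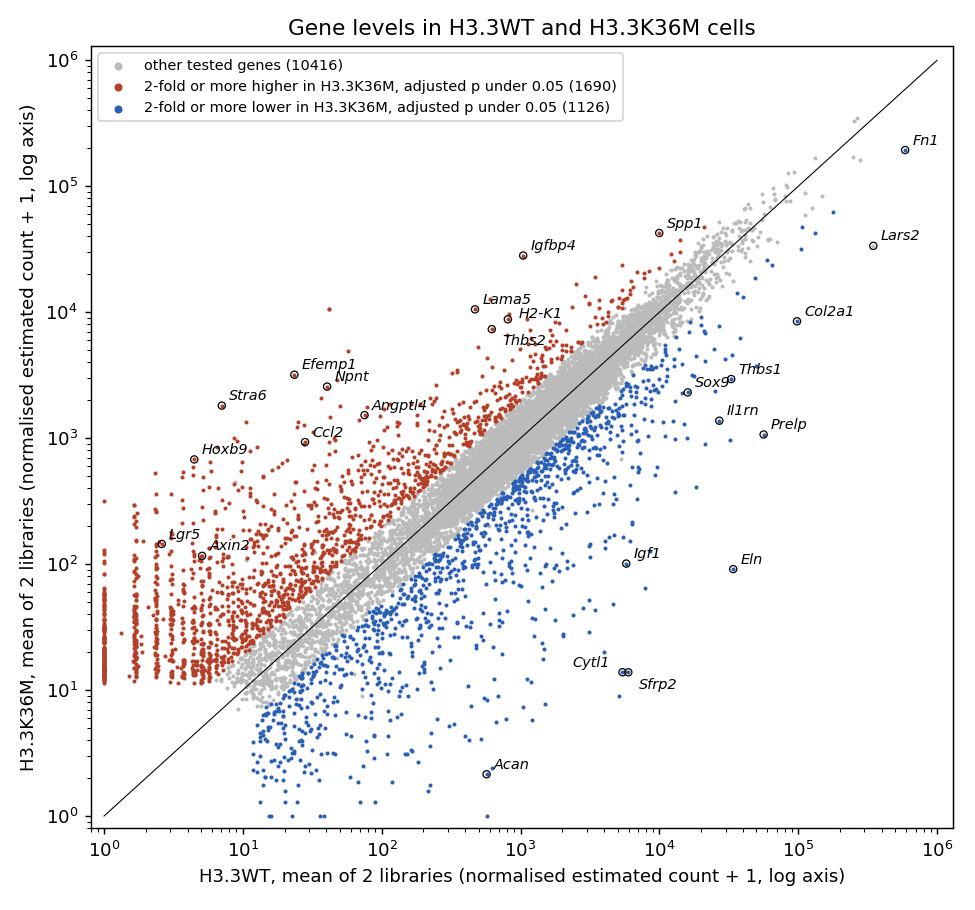
Each point is a tested gene, with its mean level in H3.3WT cells on the x axis and in H3.3K36M cells on the y axis (normalised estimated count + 1, both axes log; n = 2 libraries each). Genes that rose (1690) lie above the diagonal and those that fell (1126) below it, with the widest spread at low levels; circles mark genes described in the text.

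**Figure D2:**
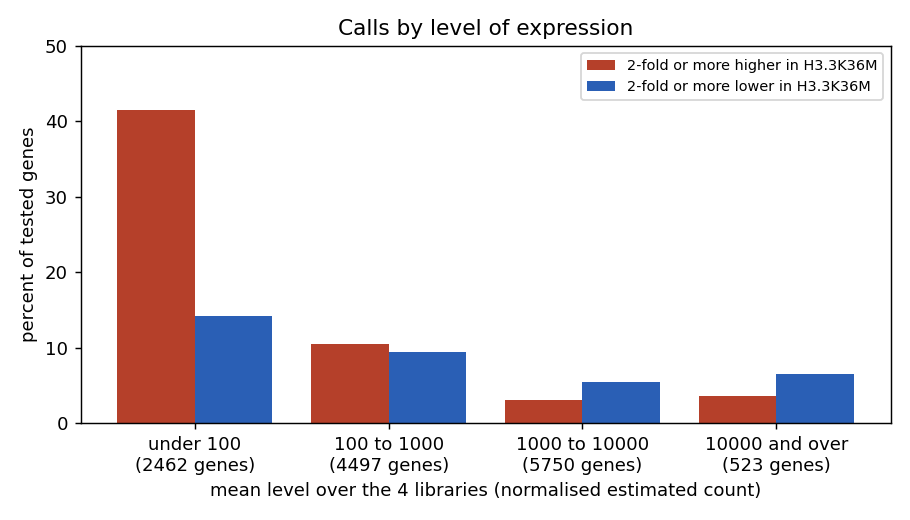
Bars give the percent of tested genes that rose or fell by at least 2-fold (adjusted p under 0.05) in 4 classes of mean level over the 4 libraries. Rises make up 41.6% of the genes under 100 and 3.11% of those from 1000 to 10000, where falls (5.48%) are more frequent.

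The H3.3 genes and the H3K36 methyltransferases changed by less than 2-fold, apart from Whsc1. H3f3a, which encodes H3.3, stood at 22592 and 22313 against 12652 and 13335, and was lower at any size (log2 -0.79 ± 0.04 SE). H3f3b, the other H3.3 gene, stood at 33157 and 31853 against 26455 and 27490.1, also lower at any size (log2 -0.27 ± 0.04 SE). Values per gene do not show the substitution or the tag, so these levels do not check the labels. Of 9 H3K36 methyltransferases Whsc1 was the only one that rose, at 2741 and 2708 against 5659.5 and 5671 (log2 1.06 ± 0.04 SE, adjusted p = 5.21e-10). Setd2 stood at 4754 and 4809 against 3979 and 4136, lower at any size (log2 -0.24). Nsd1 stood at 5564 and 5589.8 against 5784 and 6097 and did not pass the test (adjusted p = 0.0539). Of 22 H3K36 demethylases and readers 1 rose, the demethylase gene Kdm4d, at 5.25 and 5.64 against 17.2 and 15.9 (log2 1.45 ± 0.38 SE). Kdm4d did not pass without H3.3K36M replicate 1 or replicate 2 (adjusted p = 0.0949 and 0.0755) or after quantile normalisation (adjusted p = 0.505). Polycomb repressive complex 2 methylates histone H3 at lysine 27, and none of its 11 genes changed by 2-fold, though 6 were higher and 4 lower at any size. Its subunit Suz12 stood at 1890.2 and 1940.2 against 3234 and 3464 (log2 0.81 ± 0.05 SE). In other chromatin lists, Tet1, which oxidises methylated DNA, fell (904 and 908 against 199 and 199.8). Pcgf5, a subunit of Polycomb repressive complex 1, rose (383 and 354 against 1144 and 1175).

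Cartilage genes fell together. All 8 cartilage collagens fell, with a median log2 difference of -3.77. Col27a1, a fibrillar collagen of cartilage, stood at 12378 and 13488 against 375 and 370.3 (log2 -5.11 ± 0.05 SE, adjusted p = 3.38e-14). Col9a1, a chain of the type IX collagen that coats cartilage fibrils, stood at 4709 and 4749 against 161 and 181 (log2 -4.79 ± 0.07 SE). Col10a1, the collagen of hypertrophic cartilage, stood at 358 and 353 against 31.0 and 19.7. The H3.3K36M libraries lay more than 10-fold below the H3.3WT libraries for each of these genes. The smallest fall was that of Col11a2, at 1479.6 and 1558 against 754 and 755 (log2 -1.01 ± 0.05 SE), a gene chosen after its value was seen. With a pseudocount of 10, 7 of the 8 were called. Together the 8 genes made up 0.509% and 0.512% of the summed levels in H3.3WT and 0.0431% and 0.0423% in H3.3K36M.

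The proteins that fill the space between cartilage fibrils went the same way. Of 22 cartilage proteoglycans and matrix proteins, 15 fell and 1 rose (median log2 -3.65). Lect1, an anti-angiogenic protein of cartilage also called chondromodulin, stood at 4446 and 4753 against 44.1 and 50.6 (log2 -6.57 ± 0.08 SE). Hapln1, the link protein that ties aggrecan to hyaluronan, stood at 1478 and 1434 against 13.8 and 19.7. Aggrecan itself (Acan) stood at 572 and 564 against 2.29 and 0, with 1 H3.3K36M library at 0. Has2, which makes the hyaluronan that these molecules bind, fell too (655 and 732 against 34.8 and 27.2). Prg4, or lubricin, the lubricant of joint surfaces, stood at 400.4 and 400.1 against 359 and 359.5 and did not pass the test; it was chosen after its value was seen. Cilp2 was the member that rose, at 10.5 and 22.6 against 49.9 and 49.7.

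Regulators of cartilage fell as well. Of 9 chondrogenic transcription factors tested, 5 fell and none rose: Sox6, Mef2c, Sox9, Zbtb20 and Trps1. Sox6, which acts with Sox9 on cartilage matrix genes, stood at 2989 and 3270.2 against 25.8 and 30.0 (log2 -6.76 ± 0.10 SE). Mef2c, which drives chondrocyte hypertrophy, stood at 850.3 and 799 against 94.6 and 109. Sox9, on which cartilage formation depends, stood at 15668 and 16311 against 2369.6 and 2245 (log2 -2.79 ± 0.04 SE), so it fell without nearing 0. In the growth plate, PTHrP and hedgehog signals set the pace of hypertrophy, and of 12 genes of that pathway 4 fell and 1 rose. Pth1r, the receptor of PTHrP, stood at 1141 and 1096 against 88.3 and 88.2. Boc, a hedgehog co-receptor, stood at 7046 and 7088 against 998 and 934. Hhip, a hedgehog inhibitor, rose from a level near that of 1 read (0 and 1.41 against 28.7 and 28.1). Tendon genes split, since Tnmd, or tenomodulin, fell (7217 and 7444 against 1888 and 1998) and Scx, the tendon transcription factor, rose (177 and 182 against 1299 and 1319).

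**Figure D3:**
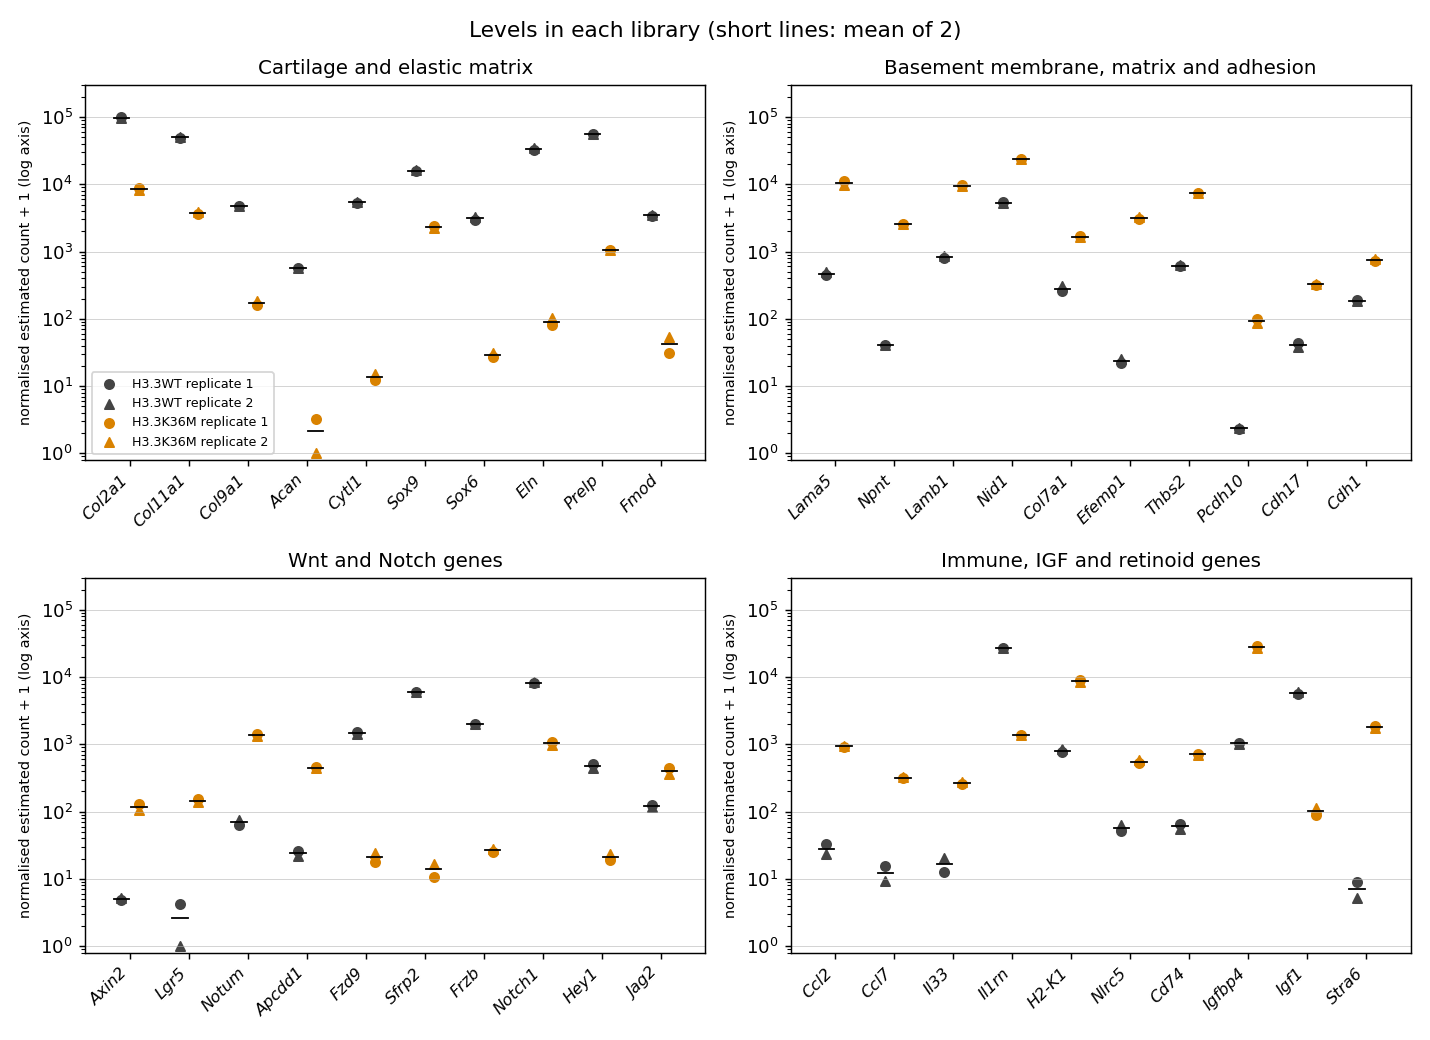
Levels of 40 genes in each of the 4 libraries (normalised estimated count + 1, log axis), with circles for replicate 1, triangles for replicate 2, dark symbols for H3.3WT, orange for H3.3K36M and short lines for the mean of 2. The groups overlap for none of the genes shown; the genes chosen for the cartilage and elastic panel are higher in H3.3WT and those chosen for the basement membrane, matrix and adhesion panel in H3.3K36M, which is not true of every member of those lists.

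Matrix genes outside cartilage moved in both directions. Small leucine-rich proteoglycans, which bind and space collagen fibrils, fell in 7 of 12 cases and rose in 1 (median log2 -1.94). Prelp stood at 56148 and 56489 against 1072 and 1064 (log2 -5.72 ± 0.03 SE, adjusted p = 1.42e-15). Fmod, or fibromodulin, stood at 3351 and 3550.3 against 30.4 and 53.5 (log2 -6.38 ± 0.30 SE). Podnl1 was the member that rose (40.7 and 24.0 against 403 and 392). Elastic fibres are built of elastin on a scaffold of microfibrils. Elastin (Eln) stood at 32905 and 35096 against 79.4 and 101 (log2 -8.55 ± 0.10 SE), and the microfibril gene Fbn2 at 7262 and 7294 against 762 and 765. They were the members of the elastic fibre list that fell, and 5 of its 21 genes rose (3 without H3.3K36M replicate 1 or after quantile normalisation). Among those that rose, Efemp1, or fibulin 3, stood at 21.0 and 24.0 against 3080.0 and 3299 (log2 7.09 ± 0.10 SE). Ltbp1, which stores latent TGF-beta in the matrix, stood at 3734 and 3629 against 12534 and 12459.

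Collagens of other tissues fell in 8 of 18 cases and rose in 4. Those that rose were Col7a1, Col17a1, Col18a1 and Col23a1, which belong to anchoring fibrils, basement membranes or the cell surface and are not fibrillar collagens. Col7a1, the anchoring fibril collagen, stood at 259 and 303 against 1696 and 1618, and the transmembrane collagen Col23a1 at 31.5 and 25.4 against 274 and 318. Of those that fell, Col8a1 stood at 9350.2 and 9372 against 485 and 536 and the fibrillar Col5a3 at 9537 and 9906 against 2324 and 2297. The fibrillar collagens of types I and III moved apart. Col3a1 fell (177536 and 179233 against 62965 and 61257), Col1a2 was lower at any size (280927 and 277066 against 165246 and 159142) and Col1a1 higher at any size (255910 and 247803 against 353023 and 311128). After quantile normalisation neither Col1a1 nor Col1a2 passed (adjusted p = 0.0588 and 0.225). Fibronectin (Fn1), at 577130 and 600149 against 198522 and 189304, made up 1.78% of the summed levels in H3.3WT and 0.606% in H3.3K36M on average.

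Of 21 basement membrane genes 8 rose and 5 fell (5 rose after quantile normalisation, with a pseudocount of 10 or among genes with at least 100 in 2 libraries). A laminin is a trimer of an alpha, a beta and a gamma chain, and single chains moved in opposite directions. Lama5 stood at 448 and 489.6 against 11158 and 9908 (log2 4.49 ± 0.06 SE, adjusted p = 2.36e-13), and Lamb1 at 791 and 869 against 9885 and 9306 (log2 3.53 ± 0.05 SE). Lama2 stood at 98.4 and 124 against 17.8 and 19.7 and Lamb3 at 4673 and 4627 against 314 and 289, both lower. Alpha and beta chains thus had members on both sides. The nidogens, which link laminin to type IV collagen, also parted: Nid1 rose (5365 and 5329.9 against 23985 and 23837) and Nid2 fell (21461 and 21494 against 7048 and 6534). Npnt, a basement membrane ligand of integrin alpha 8, stood at 39.4 and 39.5 against 2579 and 2553 (log2 5.99 ± 0.08 SE). Itga8, the chain that binds it, rose too, from a few reads in H3.3WT (5.25 and 2.82 against 32.7 and 30.9).

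Adhesion and matrix-cutting genes followed. Cadherins and protocadherins, which join cells to each other, rose in 10 of 17 cases and fell in 1 (median log2 1.13). Cdh17 stood at 42.0 and 36.7 against 322 and 334 (log2 3.03 ± 0.14 SE) and Pcdh10 at 1.31 and 1.41 against 96.9 and 84.4. The member that fell was Pcdh1, at 1519 and 1576 against 261 and 239. Many of those that rose had low levels, and 6 rose among genes with at least 100 in 2 libraries. Of 19 thrombospondins and other matricellular proteins 7 fell and 4 rose. Thbs2 stood at 618 and 621 against 7355 and 7315 (log2 3.56 ± 0.04 SE), whereas its close relative Thbs1 stood at 32969 and 32823 against 2933 and 2959 (log2 -3.48 ± 0.03 SE). Of 23 metalloproteinases and inhibitors 5 rose and 5 fell, and 1 of the rises was among genes with at least 100 in 2 libraries. Reck, a membrane-bound inhibitor of these enzymes, fell (3958 and 3971 against 832 and 858), and the protease Adamts6 rose (92.6 and 98.8 against 1469 and 1505).

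Wnt ligands bind frizzled receptors, R-spondins and their Lgr receptors keep frizzled at the surface, and beta-catenin then switches on target genes, several of which damp the pathway. Of 8 ligands tested 4 rose and 1 fell, all at low levels. Wnt9a stood at 39.4 and 53.4 against 248 and 269 and Wnt7b at 17.1 and 9.88 against 74.0 and 66.6, while Wnt5b, which fell, stood at 143 and 145 against 58.5 and 56.3. Among genes with at least 100 in 2 libraries 1 ligand rose. Of 20 receptors and R-spondins 7 fell and 4 rose. The receptor Fzd9 stood at 1502 and 1429 against 16.6 and 23.4 (log2 -6.14 ± 0.15 SE), and Fzd8 at 3749 and 3615 against 311 and 287. The R-spondin receptor Lgr4 stood at 25153 and 25367 against 2299.8 and 2420.5 (log2 -3.42 ± 0.04 SE). The R-spondins went the other way, with Rspo1 at 7.87 and 12.9 against 157 and 160.4 and Rspo3 at 119 and 109 against 432 and 446.

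Target and feedback genes of the Wnt pathway rose in 8 of 14 cases and fell in 1 (median log2 1.95). Axin2, the feedback scaffold of the complex that destroys beta-catenin, stood at 3.94 and 4.23 against 127 and 103 (log2 4.51 ± 0.28 SE, adjusted p = 5.91e-08). Notum, an enzyme that inactivates Wnt ligands, stood at 63.0 and 73.4 against 1445 and 1336 (log2 4.33 ± 0.10 SE). Apcdd1, an inhibitor in the membrane, stood at 24.9 and 21.2 against 453 and 444. Lgr5, an R-spondin receptor and a target, stood at 3.22 and 0 against 151 and 136, where the H3.3WT values rest on at most a few reads. The transcription factor Tcf7 was the member that fell (629 and 665 against 83.1 and 89.1). Secreted antagonists did not share a direction, since 4 of 7 rose (2 among genes with at least 100 in 2 libraries) and 2 fell. Sfrp1 stood at 280.1 and 238 against 929 and 986, but Sfrp2 stood at 6007 and 5934 against 9.75 and 15.9 (log2 -8.79 ± 0.19 SE). Frzb, an antagonist first known from cartilage, stood at 2009 and 2021 against 24.1 and 27.2.

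Other growth factor pathways changed in both directions. A minimum of 100 below means a level of at least 100 in 2 libraries. BMPs, their receptors and antagonists fell in 5 of 19 cases (3 with a minimum of 100) and rose in 3. The antagonist noggin (Nog) stood at 328 and 277 against 4.59 and 3.75 and follistatin (Fst) at 738 and 719.6 against 107 and 117, both lower. The antagonist Grem1 stood at 463 and 528 against 5275 and 5354 and Bmper at 249 and 226 against 1948 and 1963, both higher, so antagonists lay on both sides. In the FGF list 7 of 17 rose and 4 fell. The receptors Fgfr2 and Fgfr3 fell, at 2084 and 2250.2 against 105 and 79.7 and at 1905 and 2058 against 287 and 282. Etv4 (22.3 and 16.9 against 305 and 286), a transcription factor known to be induced by FGF signals, rose, and so did Dusp6 (122 and 137 against 436 and 448), a phosphatase that damps the signal.

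Notch signalling genes fell in 6 of 16 cases and rose in 5 (3 with a minimum of 100). The receptor Notch1 stood at 8235 and 8375 against 1087 and 990.4 (log2 -3.00 ± 0.05 SE), and the ligand Jag1 at 6409.9 and 6099 against 1099 and 1058. Hey1 and Hey2, which Notch switches on, stood at 509 and 452 against 18.3 and 22.5 and at 389.8 and 399 against 2.87 and 3.75. These genes were thus lower together, while the ligands Jag2 (126 and 114 against 439 and 362) and Dll1 (9.19 and 8.47 against 57.9 and 79.3) rose.

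In the IGF pathway 8 of 21 genes rose and 4 fell (median log2 0.92), and its ligands moved apart. Igf1 stood at 5583 and 5956 against 88.3 and 112 (log2 -5.84 ± 0.09 SE), and Igf2 at 59.1 and 39.6 against 420.3 and 408 (log2 3.07 ± 0.17 SE). Igfbp4, a secreted protein that binds IGF, stood at 1062 and 1026 against 28852 and 27497 (log2 4.75 ± 0.04 SE, adjusted p = 1.05e-14). Pappa, the protease that cuts Igfbp4 and so frees IGF, stood at 243 and 269.5 against 21.2 and 21.6, and its relative Pappa2 at 701 and 686 against 25.8 and 44.0. The binding protein was thus higher and the proteases lower in the same cells. Irs1, the adaptor below the receptor, fell (16980 and 17154 against 3183 and 3157).

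The PDGF, VEGF, HGF and EGF families rose in 13 of 30 cases (8 with a minimum of 100) and fell in 3 (median log2 0.81). Hgf stood at 31.5 and 29.6 against 554 and 551 (log2 4.13 ± 0.12 SE). Its receptor Met, chosen after its value was seen, stood at 588 and 557 against 4291 and 4325. Vegfc, the growth factor of lymphatic vessels, stood at 6.56 and 5.64 against 199.5 and 177, and its receptor Flt4 rose from a level near that of 1 read (1.31 and 0 against 129 and 104). Both members of these ligand and receptor pairs rose. In the EGF family the ligand Areg rose (1.31 and 0 against 38.4 and 36.6) and the receptor Egfr fell (1651 and 1709.8 against 682 and 737).

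Retinoid genes, which include those that make and those that remove retinoic acid, rose in 6 of 15 cases and fell in 4. Among genes with at least 100 in 2 libraries 3 rose and 2 fell. Stra6, which carries retinol into cells, stood at 7.87 and 4.23 against 1847 and 1779 (log2 8.06 ± 0.21 SE). Rdh10, which oxidises retinol in the first step toward retinoic acid, stood at 539 and 509 against 3058 and 3123. Dhrs3, which reverses that step, stood at 4719 and 4714 against 361 and 351 (log2 -3.72 ± 0.05 SE). Cyp26b1, which degrades retinoic acid, stood at 3121 and 3058 against 145 and 129 (log2 -4.48 ± 0.07 SE). The enzymes that make retinoic acid itself moved apart. Aldh1a1 rose (3.50 and 0 against 17.2 and 17.8), though not without H3.3K36M replicate 1 or replicate 2 (adjusted p = 0.0753 and 0.0786), and Aldh1a3 fell (log2 -2.45 ± 0.31 SE). Guidance genes (semaphorins, ephrins and others) rose in 14 of 39 cases (8 with a minimum of 100) and fell in 9, with Sema7a at 30.2 and 47.9 against 476 and 460.5 and the semaphorin receptor Plxnb1 at 2699.9 and 2918 against 39.6 and 48.8.

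Immune genes rose more often than they fell, apart from the interleukins. Of 13 chemokines tested 6 rose and none fell (median log2 0.86), and 3 rose among genes with at least 100 in 2 libraries. Ccl2, which draws monocytes, stood at 31.5 and 22.6 against 904 and 957 (log2 5.07 ± 0.15 SE, adjusted p = 1.09e-10), and its relative Ccl7 at 14.4 and 8.47 against 319 and 322. Antigen presentation genes rose in 11 of 19 cases and none fell (median log2 1.14, or 1.07 with the member listed at 0 in H3.3WT set at 3 reads there). Nlrc5, the activator of MHC class I genes, stood at 49.9 and 62.1 against 526 and 582 (log2 3.29 ± 0.13 SE). The class I heavy chain H2-K1 stood at 778 and 841 against 9049 and 8510.2 (log2 3.44 ± 0.05 SE); its reads may be shared with near copies, so this value is uncertain. Activator and target thus rose alike. Of 36 interferon-stimulated genes 10 rose and 1 fell, with Oas1a at 1.31 and 2.82 against 78.2 and 85.5 and, in the other direction, Ifit3 at 950.3 and 1013 against 291 and 342. Among genes with at least 100 in 2 libraries 3 of them rose. Of 14 complement genes 5 rose and 3 fell. C1s, a protease of the first complement component, stood at 758 and 832 against 6429 and 6668.

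Interleukins and colony-stimulating factors rose in 7 of 22 cases and fell in 7. Il33, an alarm cytokine, stood at 11.8 and 19.8 against 258 and 271, and its receptor Il1rl1 at 245 and 210.5 against 1863 and 1875 (log2 3.03 ± 0.08 SE). Ligand and receptor thus rose together. Il1rn, which blocks the interleukin 1 receptor, fell furthest in the list, at 27134 and 26916 against 1369.7 and 1379.6 (log2 -4.30 ± 0.04 SE).

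Markers of macrophages moved with these immune genes. Of 19 such markers 7 passed the filter, and 5 of those rose (3 without either of the H3.3K36M libraries, 2 among genes with at least 100 in 2 libraries). Their summed level was 327 and 332 in H3.3WT and 1283 and 1264 in H3.3K36M, where Cd74 (64.3 and 55.0 against 727 and 697) and Lyz2 (61.4 and 53.4 against 209 and 204) made up most of it. The defining markers were at or near 0. Ptprc, the receptor on all leukocytes, stood at 0 and 0 against 4.59 and 6.56, and Emr1, which encodes F4/80, at 0 and 0 against 0.573 and 2.81. C1qa was at 0 in all 4 libraries. The part of other cells in the immune results was not tested, and in bulk RNA fewer cells of a type and less RNA per cell cannot be told apart.

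Lists of other cell types were read in the same way. Endothelial markers summed to 1952 and 1857 in H3.3WT and 870.0 and 794 in H3.3K36M, and Pecam1 was at 1.31 and 4.23 against 2.29 and 6.56. Of the 5 tested, 2 rose and 2 fell (1 rose among genes with at least 100 in 2 libraries). Cdh5, the cadherin of endothelial junctions, rose (27.6 and 14.1 against 73.4 and 61.0), as did the secreted factor Egfl7 (63.0 and 54.9 against 245 and 231). Erg, a transcription factor that cartilage progenitors also express, fell (591 and 548 against 5.16 and 9.38), as did the angiopoietin receptor Tek (939.7 and 886 against 159 and 149). The epithelial list summed to 620.2 and 549 in H3.3WT and 887 and 926 in H3.3K36M, with 5 of 7 higher (1 among genes with at least 100 in 2 libraries) and 2 lower, and Epcam at 0 in all 4 libraries. E-cadherin (Cdh1) rose (192 and 181 against 728 and 786) and the keratin Krt14 fell (194 and 171 against 25.1 and 23.2). Neural and glial markers summed to 3684 and 3763 in H3.3WT and 1605 and 1652 in H3.3K36M. Of the 7 tested 4 fell, 1 of them among genes with at least 100 in 2 libraries, and Stmn2, which binds tubulin, rose (48.6 and 42.3 against 172 and 196). Most of the H3.3WT sum was S100b (2964 and 3076 against 489 and 536), which cartilage also expresses. Of 17 markers of the labelled mesenchymal cells tested, 3 rose and 3 fell, and 6 were higher and 9 lower at any size. Together they made up 5.00% and 5.07% of the summed levels in H3.3WT and 3.31% and 3.15% in H3.3K36M. Those that fell were Col3a1, Fn1 and Postn, or periostin, a matrix protein that stood at 10711 and 11113 against 1034 and 1035. Twist2 and Nt5e rose. The mesenchymal factor Prrx1 stood at 25968 and 25894 against 26751 and 27761 and did not pass the test. Vimentin (Vim) stood at 249302 and 247219 against 173636 and 167728, lower at any size (log2 -0.54) but at 0.08 after quantile normalisation. Thy1, a marker of stromal cells, rose too (114 and 91.7 against 1164 and 1149).

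**Figure D4:**
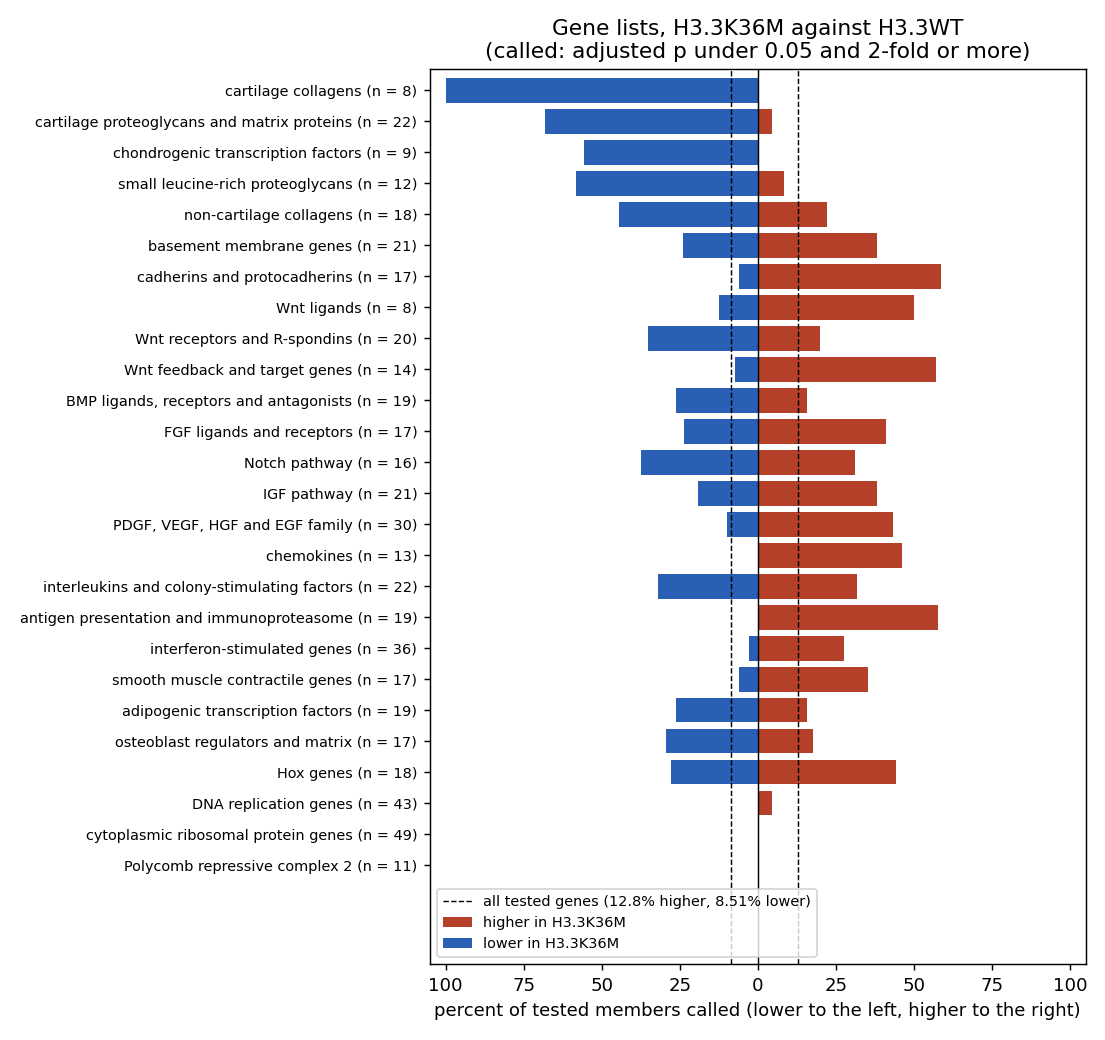
Bars give the percent of each list's tested members (n in brackets) that fell, to the left, or rose, to the right, by at least 2-fold at an adjusted p under 0.05. Dashed lines mark the shares over all genes tested (12.8% higher and 8.51% lower), which are not matched for level. Cartilage lists extend to the left, and cadherin, Wnt feedback and antigen presentation lists to the right. Ribosomal and Polycomb repressive complex 2 genes have no bar.

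Regulators of the other mesenchymal lineages gave a mixed picture. Of 19 adipogenic transcription factors 5 fell and 3 rose (1 without H3.3WT replicate 2). Pparg, the regulator of fat cell formation, stood at 945 and 919 against 369.8 and 417 (log2 -1.24 ± 0.07 SE), and its partner Cebpa at 1685 and 1801 against 307 and 298. Zfp423, which marks cells committed to fat, stood at 189 and 195 against 26.9 and 26.3. These fat regulators fell, while Klf5 rose (24.9 and 26.8 against 126 and 138). Of 18 genes of fat storage and fat cell secretion 6 fell and 1 rose. G0s2, an inhibitor of lipolysis, stood at 3970.3 and 3953 against 14.3 and 23.4 (log2 -7.68 ± 0.19 SE), and Angptl4, which rose, at 70.9 and 77.6 against 1583 and 1465.

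In bone, Runx2, the regulator of osteoblasts, stood at 2459.8 and 2549 against 2328 and 2132, lower at any size (log2 -0.17 ± 0.05 SE, adjusted p = 0.011). It did not pass without H3.3WT replicate 2 or H3.3K36M replicate 2 (adjusted p = 0.0708 and 0.0949), or with limma's variance prior set without a trend and not robust (adjusted p = 0.0896). Of 17 osteoblast genes 5 fell and 3 rose. Tnfrsf11b, or osteoprotegerin, which restrains osteoclasts, stood at 5566 and 5337 against 160.0 and 167 (log2 -5.05 ± 0.06 SE). Osteopontin (Spp1), a matrix protein of bone and of stressed tissue, stood at 9692 and 10253 against 40526 and 44536 (log2 2.09 ± 0.05 SE). Both were large changes at high levels, in opposite directions. The osteoblast factor Sp7 stood at 6.56 and 2.82 against 11.5 and 10.3, near the filter, and turned to -0.56 in log2 after quantile normalisation. Skeletal muscle genes fell in 4 of 12 cases and rose in 2 (4 without H3.3WT replicate 1), with the slow troponin Tnni1 at 506 and 579.9 against 4.01 and 11.3.

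Of 17 smooth muscle contractile genes 6 rose and 1 fell (median log2 0.50). The actin Actg2 stood at 203 and 174 against 1956 and 1805 (log2 3.31 ± 0.08 SE), the myosin light chain Myl9 at 474 and 473 against 1984 and 1964 and tropomyosin 2 (Tpm2) at 1167 and 1157 against 4517 and 4520.5. Acta2, the smooth muscle actin most used as a marker and chosen after its value was seen, did not follow them, at 23218 and 21872 against 17842 and 16638, and was lower at any size. The member that fell was Filip1l (5122 and 5165 against 1657 and 1784).

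Serum response factor binds the CArG box before many contractile genes. Promoter windows from RefSeq (250 bases before to 50 after a gene start, in GRCm38.p6, a later build than the mm9 of the deposited data) were searched on both strands, for motifs chosen after the values were seen. Of the 7 smooth muscle genes called, 5 had a window, and 3 of their 6 windows held a CArG box, against 1.63% of all 32851 windows. These belonged to Cnn2 and Myl9, which rose (Cnn2 stood at 7057 and 6674 against 20704 and 20642), and to Filip1l, which fell. The box thus stood before genes that moved in opposite directions. The windows are shown 5′ to 3′, with the box in capitals, to give its place before each gene.
Cnn2, GRCm38.p6, chr10:79988350-79988649, plus strand: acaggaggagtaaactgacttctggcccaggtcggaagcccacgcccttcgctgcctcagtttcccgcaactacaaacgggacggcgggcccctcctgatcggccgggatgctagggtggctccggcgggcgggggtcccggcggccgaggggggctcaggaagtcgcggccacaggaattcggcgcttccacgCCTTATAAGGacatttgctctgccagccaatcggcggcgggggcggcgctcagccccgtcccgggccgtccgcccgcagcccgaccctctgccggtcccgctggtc
Myl9, GRCm38.p6, chr2:156775214-156775513, plus strand: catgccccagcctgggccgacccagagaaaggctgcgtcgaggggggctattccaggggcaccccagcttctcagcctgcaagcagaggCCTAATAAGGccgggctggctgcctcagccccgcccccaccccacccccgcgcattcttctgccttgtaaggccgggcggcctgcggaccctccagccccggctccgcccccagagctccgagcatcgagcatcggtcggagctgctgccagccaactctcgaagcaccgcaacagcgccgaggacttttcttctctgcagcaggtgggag
Filip1l, GRCm38.p6, chr16:57548992-57549291, plus strand: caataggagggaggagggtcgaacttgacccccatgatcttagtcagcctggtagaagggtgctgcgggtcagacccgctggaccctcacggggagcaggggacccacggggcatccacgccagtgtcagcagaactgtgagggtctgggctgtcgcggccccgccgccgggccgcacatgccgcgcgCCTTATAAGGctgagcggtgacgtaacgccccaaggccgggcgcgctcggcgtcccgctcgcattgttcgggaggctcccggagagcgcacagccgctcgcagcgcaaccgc
The box began 56 bases before the start of Cnn2, 161 before that of Myl9 and 62 before that of Filip1l. The letters AACAAT, a core bound by SOX factors, were in none of the 7 windows of the cartilage collagens. They were in 4 of 16 windows of the called cartilage proteoglycan and matrix genes (those of Cilp2, Epyc and Papss2), against 10.7% of all windows. The letters ATCAAAG, bound by TCF/LEF factors, were in 1 of 9 windows of the called Wnt feedback genes, that of Tnfrsf19, against 3.73% of all windows. A match describes letters in this window and is not a binding site.

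Patterning genes, which set position along the body and limb, moved in both directions. Of 39 Hox genes 18 could be tested, and 8 rose and 5 fell. All the HoxB genes called rose, namely Hoxb3 to Hoxb9, and the others that changed were of the HoxA and HoxC clusters. Hoxb9 stood at 2.70 and 4.23 against 706 and 648 (log2 7.27 ± 0.22 SE). Hoxb8 was listed at 0 in both H3.3WT libraries and at 99.2 and 64.8 in H3.3K36M, and Hoxb3 at 0 in both and at 61.4 and 44.1. Hoxc13 fell furthest (631 and 567 against 35.0 and 30.0), and Hoxa3 fell as well (1071 and 1077 against 328 and 294). Many rises began from 0 or a few reads, and 1 of the 8 was among genes with at least 100 in 2 libraries. Hox genes near 0 in H3.3WT could pass the filter only by being higher in H3.3K36M, so the shared direction of the HoxB genes is in part set by the filter. Limb and mesenchymal factors fell in 9 of 29 cases and rose in 6 (3 with a minimum of 100), with Lhx9 at 199 and 241 against 0.573 and 4.69 and Osr2 at 81.4 and 77.6 against 929 and 936.

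Imprinted genes, expressed from 1 parental copy, rose in 6 of 18 cases (3 with a minimum of 100) and fell in 2. Peg3, a paternally expressed zinc finger gene, stood at 10.5 and 12.7 against 839.8 and 848 (log2 6.07 ± 0.15 SE). Dlk1, which restrains fat cell formation, fell (470.1 and 466 against 130.2 and 119). All 8 small proline-rich and prolactin family genes that could be tested rose, of 17 listed (5 with a minimum of 100). Sprr2k stood at 3.94 and 1.41 against 201 and 225. Members of these families are near copies of each other, so reads may be split between them and the values are uncertain, and genes near 0 in H3.3WT could pass the filter only by being higher in H3.3K36M.

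Most DNA replication, mitosis and ribosomal protein genes were higher by small amounts. Of 43 DNA replication genes 39 were higher at any size, with a median log2 difference of 0.55, and Mcm2 and Cdt1 rose. Mcm2, a subunit of the replicative helicase, stood at 2679 and 2546 against 5922 and 5578, and Cdt1, which loads that helicase, at 858 and 819 against 1873 and 1699. Of 39 mitosis genes 30 were higher at any size and none rose, with the kinase Aurkb at 1660.2 and 1475 against 2536 and 2397. Of 49 ribosomal protein genes 46 were higher at any size and none rose (median log2 0.43). Of 23 ATF4 and amino acid response genes 4 rose, with the serine synthesis enzyme Psat1 at 8209 and 7239 against 20519 and 20285. None of 54 oxidative phosphorylation or 23 cholesterol synthesis genes was called at 2-fold. Of 31 glutathione and NRF2 target genes 5 fell and 2 rose (4 without H3.3WT replicate 2 or with libraries scaled to the same sum). Nqo1, a target of NRF2, stood at 11303 and 11355 against 3039 and 3166, and the glutathione transferase Mgst1 at 36.7 and 45.2 against 925 and 937.

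Levels in control siRNA cells were read from the table that holds all 3 groups, on a scale of its own. The values below are means, with the SD over the 3 control libraries. The comparisons share the H3.3K36M libraries, so they are given side by side. For some genes H3.3K36M stood apart from both other groups. Sox9 was at 7794 ± 233 in control siRNA cells, 12089.9 in H3.3WT and 1767 in H3.3K36M. Igfbp4 was at 778 ± 49.1, 789 and 21573 in the same order. Lama5 was at 474 ± 69.5, 354 and 8064. H2-K1 was at 416 ± 21.7, 612 and 6722. For these genes the H3.3WT and control levels lay closer to each other than to H3.3K36M. Elastin and Col2a1 lay between, since control siRNA cells were below H3.3WT and above H3.3K36M, with Eln at 4442 ± 214, 25708 and 69.1 and Col2a1, the main cartilage collagen, at 23861 ± 614, 74086 and 6483.

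For others H3.3WT stood apart and H3.3K36M lay near control siRNA cells. Thbs1 was at 2402 ± 184 in control siRNA cells, 24874 in H3.3WT and 2256 in H3.3K36M. Its log2 difference was -0.09 for H3.3K36M minus control siRNA, against -3.48 for H3.3K36M minus H3.3WT. Pth1r was at 63.9 ± 11.6, 846 and 67.6. Dhrs3 was at 302 ± 22.2, 3566 and 273. For these genes the H3.3K36M and control levels lay closer to each other than to H3.3WT. Which of the lines had changed was not tested. Thy1, at 822 ± 46.9, 77.9 and 885, and Myl9, at 1247 ± 62.0, 358 and 1511, gave the same order in the other direction, with H3.3WT low.

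For Hgf and Rspo3 the sign of the difference depended on the reference. Hgf was at 767 ± 19.6, 23.1 and 423, and Rspo3 at 1019 ± 41.2, 86.2 and 336, so both rose against H3.3WT yet were below control siRNA cells. Nog was listed at 0 in all 3 control libraries, so no direction is read for H3.3K36M against them. By level H3.3K36M lay near these libraries and H3.3WT stood apart, as for Thbs1. The cell cycle inhibitors Cdkn2a, at 189 ± 12.6 in control siRNA cells, and Cdkn2b, at 244 ± 13.3, were at or near 0 in both histone lines and not tested (0 and 1.41 against 1.15 and 0 for Cdkn2a and 5.25 and 11.3 against 2.87 and 0 for Cdkn2b in the 2-group table). Their chromosomal neighbour Mtap, an enzyme of methionine salvage, was at 9309 ± 272, 4049 and 11548.

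**Figure D5:**
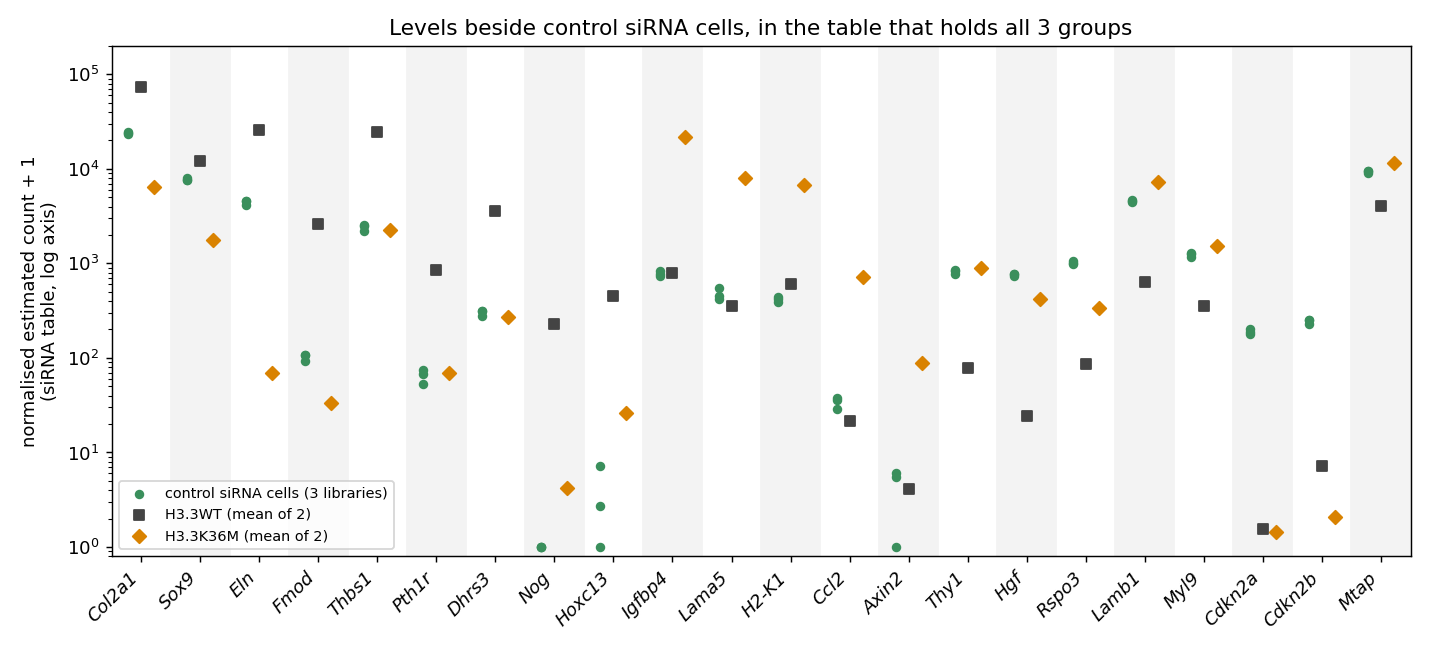
Levels of 22 genes in control siRNA cells (3 libraries, green), H3.3WT (mean of 2, dark squares) and H3.3K36M (mean of 2, orange diamonds), all from the table that holds the 3 groups (normalised estimated count + 1, log axis). For Thbs1, Pth1r, Dhrs3, Thy1 and Myl9 the H3.3K36M mean is nearer to the control libraries than the H3.3WT mean is, and Cdkn2a and Cdkn2b are near 0 in both histone lines.

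Large changes were also found in genes not yet described. Cytl1, a secreted protein of cartilage, stood at 5337 and 5500.4 against 11.5 and 14.3 (log2 -8.62 ± 0.11 SE). Penk, the precursor of enkephalins, stood at 790.1 and 779 against 5.16 and 4.69, and the epithelial transcription factor Ehf at 512 and 516 against 2.37 and 3.75. Cmtm5 was at 585 and 552 in H3.3WT and listed at 0 in both H3.3K36M libraries. These were among the largest falls by log2 difference. Some of the largest rises began from at most 1 read in H3.3WT. Among these were Apob, a lipoprotein, at 1.31 and 0 against 229.9 and 242, F13a1, a chain of a clotting factor, at 1.31 and 0 against 287 and 299, and Eda, an ectodermal signal, at 1.31 and 0 against 247 and 234.

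Lars2, the mitochondrial leucyl-tRNA synthetase, varied within groups. It stood at 418347 and 276242 against 54413 and 12855, on average 1.05% of the summed levels in H3.3WT and 0.105% in H3.3K36M. The groups did not overlap, yet the test was not passed (log2 -3.68 ± 1.05 SE, adjusted p = 0.0832), though it was without H3.3K36M replicate 1 or replicate 2 (adjusted p = 0.0140 and 0.0393). Control siRNA cells had 4605 ± 160.3, where H3.3WT had 262621 and H3.3K36M 25729.8. The source of the reads given to this gene was not tested, so its values are uncertain.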

How the data were processed

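RNA was measured by TruSeq libraries of Trizol-extracted total RNA, per the labels' protocols. The authors deposited a table of signal values, which are RSEM 1.2.12 estimated counts after Bowtie 1.0.0 alignment to mm9 (per the submitters' processing notes), divided by a factor for each library (median normalisation, as the deposited table is named). Each table was scaled separately, so values are compared within a table. Only 33.2% to 38.5% of values were whole reads (tolerance 0.005). A count test had been planned in case the values were raw or expected counts. It was not run on these scaled estimates, so how the calls depend on that choice is not known.

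Genes with a signal of at least 10 in 2 libraries were tested on log2(value + 1) with limma 3.58.1 (R 4.3.3, eBayes with trend and robust options), 2 libraries against 2, two-sided, with Benjamini-Hochberg adjustment over all 13232 genes. This scale understates the change of low genes. All adjusted p-values in the text come from this fit unless an alternative is named. Replicates of a group differed by more than sampling noise (chi-square per degree of freedom 3.68 in H3.3WT and 7.41 in H3.3K36M) and were kept as separate libraries. The procedure was tested on simulated data. Figures were drawn with matplotlib 3.10.9, and tables handled in pandas 2.3.3 and numpy 2.4.6 under Python 3.11.15.

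The genes described and the 71 gene lists (1317 distinct genes tested) were chosen with earlier results of these data known, and counts over a list carry no test of their own. Genes named are up to 4 per list and direction with the largest called change (up to 3 where none was called), the 15 largest changes in each direction by log2 and by share of the summed values, and a fixed set (H3f3a, H3f3b, Setd2, Nsd1, Whsc1, Cdkn2a, Cdkn2b, Mtap, Col2a1, Sox9, Pparg and Runx2). Members named for the check of a cell type (Ptprc, Emr1, C1qa, Pecam1, Epcam, Prrx1), Cnn2 and genes named without a value stand outside that rule. So do genes said to be chosen after their value was seen (Col11a2, Prg4, Met, Acta2). Outside it too are Pcdh11x, Rnf128, Tspan6, Srpx2, Ngfr, Phospho1, Slfn4 and Slfn5, picked from the runs of neighbouring genes. Alternatives were pseudocounts of 0.5 and 10, no filter or a filter of 100, quantile normalisation, a common sum, plain eBayes, a replicate block, a fit of 10 libraries, and leaving out each library. The fit of 10 libraries also held the libraries labelled siRNA_HMT, which entered only its estimate of spread. Other tables and groups were not used here beyond these and the control siRNA levels.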

Additional observations from a re-analysis of the deposited data

How the results depend on the processing

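The count of genes at least 2-fold higher was 2566 with no filter on low values and 794 with a minimum of 100, against 1690; both change which genes are tested. Its counterpart for lower genes was 1273 and 830, against 1126. Leaving out 1 library gave 1442 to 1705 higher and 1103 to 1146 lower genes at 2-fold, and 4339 to 4927 higher and 4191 to 4515 lower at any size. The deviations of same-numbered replicates from their group means correlated at -0.0104. With 2 libraries in each group both pairs give the same value, so it cannot settle whether the numbers pair the libraries. With a replicate block 1685 were higher and 1129 lower at 2-fold, and 5018 and 4692 at any size. The direction turned after quantile normalisation for Sp7 (log2 -0.56) and Vim (log2 0.0784), whose cause was not tested. Of 378 named genes with an adjusted p under 0.05, 357 kept their direction and stayed under 0.05 in each of the 13 alternatives that tested them. The 2-fold limit was not part of this check. Nsd1 and Lars2 passed in some alternatives and not in the fit reported; Nsd1 did so without H3.3K36M replicate 1 (adjusted p = 0.0190, limma). The filter of 100 moved 24 list counts by over 1.5 times, and quantile normalisation 13. Levels of a few reads are imprecise, most of all in the shallower H3.3WT libraries.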

Other observations

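Some runs of neighbouring genes held many that rose, and others held many that fell. The order of 13131 tested genes was taken from RefSeq. Runs were picked after their values were seen, from 415 windows of 25 genes whose median lay at least 0.5 from that of all genes. They carry no test. Over all genes tested 12.8% rose and 8.51% fell. Runs with more falls than rises included Klhl12 to Pla2g4a (12 lower and 7 higher of 43), Pcdh20 to Fgf14 (10 and 4 of 47) and Ccdc126 to Adcyap1r1, which holds HoxA genes (12 and 5 of 37). On the X chromosome, the run of 67 tested genes from P2ry10 to Tsc22d3 held 26 genes that rose and 6 that fell (median log2 0.47). Pcdh11x, a protocadherin, stood at 3.94 and 2.82 in H3.3WT and 515 and 494 in H3.3K36M. Rnf128, a ubiquitin ligase, stood at 3.94 and 4.23 against 271 and 295, and Nxf3, an RNA export factor, at 1.31 and 1.41 against 350.3 and 373. These genes, near 0 in H3.3WT, passed the filter on their H3.3K36M level alone. Tspan6 and Srpx2 in the same run fell, at 6865 and 6759 against 1083 and 1182 for Tspan6 and at 4681 and 4718 against 483 and 498 for Srpx2. Tceal and Armcx genes of this run have near relatives beside them, so their values are less certain.

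The run of 47 genes from Acsf2 to Scrn2 holds the HoxB cluster, and 19 of its genes rose and none fell (median log2 0.46). HoxB genes near 0 in H3.3WT passed the filter on their H3.3K36M level alone. Genes beside the cluster rose with it. Ngfr, the low-affinity neurotrophin receptor, stood at 2.62 and 15.4 in H3.3WT and 266 and 257 in H3.3K36M, and Phospho1, a phosphatase of bone mineralisation, at 224 and 218 against 2237 and 1913. In the run of 52 genes from Utp6 to Myo19, 16 rose and 4 fell (median log2 0.58), and it holds Ccl2, Ccl7 and the Schlafen genes. Slfn4 stood at 29.3 and 18.5 against 1312 and 1384, and Slfn5 at 83.2 and 88.0 against 842 and 892. Schlafen genes are near copies of each other, so these values are uncertain. The run of 65 genes from Vps41 to Fam65b went the other way, with 27 lower and 4 higher (median log2 -0.83), and most of it is replication-dependent histone genes, which are near copies of each other. These transcripts mostly lack a poly(A) tail, so their level also depends on how RNA was selected, which was not tested.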
